A study of Mus musculus with 4 samples.

Results

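The genes described here are 8 genes of the interferon response and of MHC class I antigen presentation, taken by name: Ifitm2, Ifitm3, Ifi27, Isg15, Irf1, H2-K1, H2-D1 and B2m. All 8 had a probe that carried their name alone and a value on every array, and they are 8 of the 4754 genes tested. They were measured in NIH 3T3 cells, a mouse embryonic fibroblast line, as the ratio of knockdown RNA (Cy5) to vector RNA (Cy3), from cells that carried pU6-m3 without an insert. The tested cells carried the pU6-m3 plasmid with siSelT-1 (nucleotides 205 to 224 of the Selt mRNA) or siSelT-5 (nucleotides 971 to 989), with 2 arrays for each construct. Selt, now Selenot, is the gene of selenoprotein T, a thioredoxin-like protein of the endoplasmic reticulum. All cells, vector cells included, were stably transfected, selected with 150 µg/ml hygromycin B and grown in 10% serum with 100 nM selenite. By the submitters' design text, replicate arrays of a construct came from separate knockdown cultures and were run at separate times; whether the vector RNA was shared between arrays is not said. The labels do not say whether the cells were clones or pools, and no cells without plasmid were compared here.

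Interferons act through cell surface receptors, JAK kinases and STAT transcription factors. The STAT complexes and the IRF factors bind short promoter elements, the interferon-stimulated response element (ISRE) and the gamma-activated site (GAS), and turn on antiviral genes together with the genes of antigen presentation. MHC class I molecules consist of a polymorphic heavy chain, such as the products of H2-K1 and H2-D1, and the invariant light chain beta-2-microglobulin, the product of B2m. Double-stranded RNA is a known trigger of this response in many cell types.

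The promoters are shown first because they carry the elements through which the response is known to act, and because genes with like elements had ratios of opposite sign in these cells. Each stretch is on the strand of its gene, from RefSeq on GRCm38.p6. In the first 4, capitals mark the ISRE core, GAAA, any 2 bases and GAAA again, which was searched on both strands.
Ifitm3, chr7:141010715-141010767, minus strand: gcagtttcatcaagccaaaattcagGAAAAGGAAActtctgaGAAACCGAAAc
Ifitm2, chr7:140955973-140956032, minus strand: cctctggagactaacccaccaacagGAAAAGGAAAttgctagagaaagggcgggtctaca
Isg15, chr4:156200850-156200921, minus strand: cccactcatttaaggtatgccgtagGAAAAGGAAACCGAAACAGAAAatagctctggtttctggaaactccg
B2m, chr2:122147523-122147582, plus strand: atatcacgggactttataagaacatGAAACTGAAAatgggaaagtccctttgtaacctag
In Irf1 the capitals mark the GAS sequence TTCNNNGAA.
Irf1, chr11:53769899-53769957, plus strand: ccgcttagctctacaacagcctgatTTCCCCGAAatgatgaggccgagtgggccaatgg
In the class I heavy chain genes the first capitals mark the kappa B sequence, the exact letters that were searched on both strands and a known binding element of NF-kappa B. The second mark a shorter ISRE, GAANNGAAA, which here lies on the other strand; its spacing differs from that of the ISRE core.
H2-K1, chr17:34000404-34000483, minus strand: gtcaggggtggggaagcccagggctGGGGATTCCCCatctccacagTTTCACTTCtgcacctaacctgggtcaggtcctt
H2-D1, chr17:35262898-35262977, plus strand: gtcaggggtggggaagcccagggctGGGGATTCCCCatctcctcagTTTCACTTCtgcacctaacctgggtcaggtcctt

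Promoter windows of 300 bases were given for 7 of the 8 genes; Ifi27 had no entry. Of all 32851 windows, 3.44% held the ISRE core, 7.52% the shorter ISRE, 8.3% the GAS sequence and 0.0304% the kappa B sequence. Isg15 held 3 overlapping ISRE cores, Ifitm3 held 2 apart from each other, and Ifitm2 and B2m held 1 each. The stretch of Ifitm3 also holds a GAS sequence, which shares bases with the second ISRE core and is not marked by itself. The stretches of H2-K1 and H2-D1 were identical at 79 of 80 bases. The kappa B sequence occurred in windows of 9 genes, among them H2-K1, H2-D1 and a further class I gene, H2-Q6. These matches are letters in a window, with no measure of binding.

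The deposited values are log ratios, read here as log2, with knockdown over vector; neither the base nor the direction is stated with the values. The direction was taken from the sample titles and dye labels, and every fold, rise and fall below rests on both readings. Values were present for 7689 to 9232 of 22534 probes on the siSelT-1 arrays and for 18361 to 20268 on the siSelT-5 arrays. The median over the 7038 probes present on all arrays lay at 0.09 and 0.19 with siSelT-1, and at 0.36 and 0.43 with siSelT-5. A ratio is called centred below where that median was subtracted from each array. The SD between replicates, as a root mean square over genes, came to 0.164 with siSelT-1, against 0.349 with siSelT-5. Selt and Selenot were not found among the probe names, and the knockdown was not checked here. Of 8 tested fibroblast markers, Pdgfra, Vim, Thy1 and Postn were called higher and Fn1, Dcn and Col3a1 lower for both constructs together, beside 45.7% and 8.04% of all genes. The constructs were of opposite sign for Postn, lower with siSelT-1 (-0.78) and higher with siSelT-5 (1.64), and for Dcn (-0.86 and 0.12). After centring 2 of the markers were higher and 4 lower, and Thy1 and Postn no longer passed. With siSelT-5, untested probes lay against the call for Col3a1 (0.50 and 0.67), Dcn (0.41 and 1.03) and Thy1 (-0.87 and -0.59). That Col3a1 probe was at -0.30 on siSelT-1 replicate 2. An untested Fn1 probe stood at 0.22 on siSelT-1 replicate 2 and at 0.49 on siSelT-5 replicate 1. Another was below vector wherever it had a value. Col1a1, Col1a2 and S100a4 were not tested and were above vector wherever they had a value. Of 2 tested macrophage markers, Lyz1 (-0.16) and Lyz2 (-0.20), 0 passed in limma, with Lyz2 at an unadjusted p of 0.0450, and both were lower after centring. Further macrophage or leukocyte markers were not tested and had values with siSelT-5 only. Cd68 (0.20 and 0.61) and Itgam (0.66 and 0.43) lay above vector, and Cd14 (-0.38 and 0.32) on both sides. Cd3e (-0.44 and -0.62) and Adgre1 (-2.04, replicate 1 only) lay below it. All probes of the table with no siSelT-1 value had medians of -0.80 and -0.74 there. A ratio gives no level, so the presence of a cell type was not checked by it. Fewer cells with a transcript and less transcript per cell cannot be told apart in these bulk samples.

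Among the 8 genes the small membrane protein genes Ifitm2 and Ifitm3 and the mitochondrial protein gene Ifi27 rose with both constructs together, to 1.46-fold, 1.95-fold and 1.69-fold of vector, and H2-D1 rose to 1.39-fold. Isg15, which encodes a ubiquitin-like modifier, and H2-K1 fell, to 0.652 and 0.565 of vector. Irf1 and B2m did not pass. The threshold was 0.05 for limma's p after Benjamini-Hochberg adjustment over 4754 genes. So 4 of the 8 rose and 2 fell, beside 45.7% and 8.04% of all genes (53.7% in either direction). The median of the 8 was 0.30, beside 0.25 over all genes. After centring, Ifitm3 and Ifi27 were higher and Isg15 and H2-K1 lower, beside 20.5% of all genes that were higher and 21.9% that were lower (42.4% in either direction), and the median of the 8 was 0.04. Without siSelT-1 replicate 1, 0 of the 8 and 0 of all genes passed in limma (adjusted p 0.0515 to 0.0821 for the 6), although 6 of the 8 and 1846 of all genes had an unadjusted p under 0.05.

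**Figure D1:**
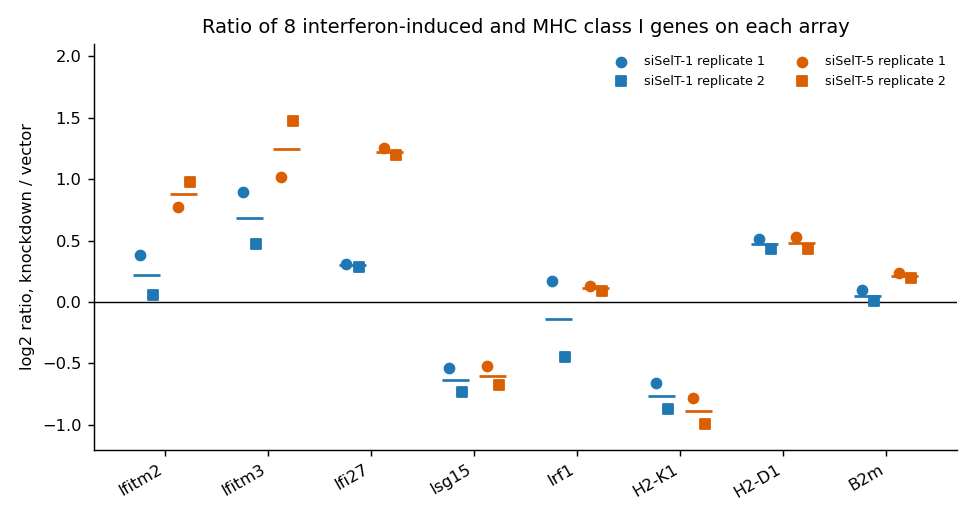
Each point is the log2 ratio of knockdown to vector on one array, by gene along the horizontal axis, with siSelT-1 in blue and siSelT-5 in orange, circles for replicate 1 and squares for replicate 2; short bars are construct means and the line at 0 is equality with vector. Isg15 and H2-K1 lie below 0 on all 4 arrays, Ifitm2, Ifitm3, Ifi27 and H2-D1 above 0 on all 4, and Ifi27 is near 0.3 with siSelT-1 and near 1.2 with siSelT-5.

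Ifitm3, which encodes a membrane protein that restricts the entry of enveloped viruses, stood at 0.89 and 0.48 on the siSelT-1 arrays and at 1.02 and 1.47 on the siSelT-5 arrays. It was above vector on all 4 arrays. The construct ranges did not overlap as deposited, and the share of all genes without overlap was not counted. The centred ranges overlapped, at 0.71 and 0.38 with siSelT-1 and at 0.59 and 1.11 with siSelT-5. The mean was 0.96 ± 0.41 (SD, n = 4), with an adjusted p = 0.00244 in limma, and 0.70 after centring (adjusted p = 0.0107). Over all genes it ranked 113 from the top. For siSelT-5 alone it rose to 1.24 ± 0.32 (SD, n = 2; limma, adjusted p = 0.00312), or 2.37-fold. For siSelT-1 alone it stood at 0.69 ± 0.30 (n = 2) and missed the threshold (limma, adjusted p = 0.0519; over the alternatives 0.00347 to 0.601).

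Ifitm2, its neighbour in the Ifitm family, stood at 0.38 and 0.05 on the siSelT-1 arrays and at 0.78 and 0.98 on the siSelT-5 arrays. Over all genes the median difference (siSelT-1 minus siSelT-5) was -0.26, and the share without overlap was not counted. For Ifitm2 every siSelT-5 value was above both siSelT-1 values. Its mean was 0.55 ± 0.41 (SD, n = 4; limma, adjusted p = 0.00593). After centring it stood at 0.28 and did not pass (0.0514). siSelT-5 alone raised it to 0.88 ± 0.14 (n = 2; limma, adjusted p = 0.00415), and siSelT-1 alone gave 0.22 ± 0.23 (0.297). The related Ifitm1 rose too, to 0.56 ± 0.38 (n = 4; limma, adjusted p = 0.00863), at 0.40 and 0.18 with siSelT-1, and at 1.07 and 0.59 with siSelT-5. Ifitm1 had a centred mean of 0.29 and an adjusted p of 0.0590 there. Ifitm genes are close paralogs, and probe sequences were not used here, so signal shared between them cannot be told apart.

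Ifi27, an interferon-induced gene whose protein is found in mitochondria and at the nuclear envelope, stood at 0.31 and 0.29 on the siSelT-1 arrays and at 1.25 and 1.19 on the siSelT-5 arrays. The values of a construct lay within 0.06 of each other, and the constructs lay far apart. With siSelT-5 it rose to 1.22 ± 0.04 (SD, n = 2; limma, adjusted p = 0.00202), or 2.33-fold, and with siSelT-1 it stood at 0.30 ± 0.02 (0.112). The difference, siSelT-1 minus siSelT-5, was -0.93 with a 95% interval of -1.30 to -0.55 and just missed the threshold (limma, adjusted p = 0.0543). Centred on the shared probes it was -0.67 (0.106). It passed with array weights (0.0466), where 279 of all 4754 genes passed. It also passed with arrays centred on all their values (0.0117), where 2512 did. Without siSelT-5 replicate 1 the difference was -0.89, and without replicate 2 it was -0.96.

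Isg15 ran the other way. Its protein is conjugated to other proteins during the interferon response. It stood at -0.54 and -0.73 on the siSelT-1 arrays and at -0.52 and -0.67 on the siSelT-5 arrays. The 4 arrays were below vector and the constructs overlapped as deposited. How often centred values did not overlap was not counted over all genes. For Isg15 they did not overlap, at -0.72 and -0.83 with siSelT-1 and at -0.95 and -1.04 with siSelT-5. The mean was -0.62 ± 0.10 (SD, n = 4; limma, adjusted p = 0.00303), and -0.88 after centring (0.00413). It fell with siSelT-1 alone (-0.63 ± 0.14, n = 2; limma, adjusted p = 0.0347, over the alternatives 0.00246 to 0.587) and with siSelT-5 alone (-0.60 ± 0.11, n = 2; 0.00919). The siSelT-1 call was lost with a looser rule on missing values (0.0622) and without siSelT-1 replicate 1 (0.587) or replicate 2 (0.397). The letters GAAACCGAAA stand in the windows both of Isg15, which fell, and of Ifitm3, which rose.

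Irf1, the gene of an interferon-induced transcription factor, stood at 0.17 and -0.45 on the siSelT-1 arrays and at 0.13 and 0.09 on the siSelT-5 arrays. One siSelT-1 array was below vector and the other 3 above it. Its mean was -0.01 ± 0.29 (SD, n = 4; limma, adjusted p = 0.931) with a 95% interval of -0.31 to 0.28. The 3 further Irf1 probes had values on the siSelT-5 arrays only. One stood at -0.05 and -0.37, another at -1.07 and -0.21, and the third at 0.30 and 1.42. Probes of Irf1 therefore differed in sign on the same arrays.

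The class I heavy chain genes H2-K1 and H2-D1 gave ratios of opposite sign. H2-K1 stood at -0.66 and -0.87 on the siSelT-1 arrays and at -0.78 and -0.99 on the siSelT-5 arrays. It was low on all 4 arrays, and the constructs overlapped. It fell with both constructs together (-0.82 ± 0.14, SD, n = 4; limma, adjusted p = 0.00193; -1.09 centred), with siSelT-1 (-0.77 ± 0.15, n = 2; 0.0323) and with siSelT-5 (-0.88 ± 0.15, n = 2; 0.00326). The siSelT-1 call was lost in the same alternatives as for Isg15, with an adjusted p of 0.0585 under the looser rule and of 0.587 and 0.397 without siSelT-1 replicate 1 or 2 (limma). A second H2-K1 probe had a single value, -1.46 on siSelT-5 replicate 1.

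H2-D1 stood at 0.51 and 0.43 on the siSelT-1 arrays and at 0.53 and 0.43 on the siSelT-5 arrays. As deposited it had the smallest spread of the 8 genes over the 4 arrays, with a mean of 0.48 ± 0.05 (SD, n = 4; limma, adjusted p = 0.00487). It passed for siSelT-1 (0.47 ± 0.06, n = 2; 0.0479) and for siSelT-5 (0.48 ± 0.07, n = 2; 0.0140). The siSelT-1 call was lost with the looser rule on missing values (limma, adjusted p = 0.0823) and with each named probe fitted by itself (0.0547). Centred, H2-D1 stood at 0.21 for both constructs together (0.0561), at 0.33 for siSelT-1 (0.0872) and at 0.09 for siSelT-5 (0.480). It did not pass in any of them.

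A further probe was annotated to both H2-K1 and H2-D1 and was kept out of the gene tests. It stood at 0.55 and 0.48 on the siSelT-1 arrays and at 1.02 and 0.68 on the siSelT-5 arrays, the side of H2-D1. Fitted among all 7038 probes with values on every array it averaged 0.68, with a limma adjusted p of 0.00299. Heavy chain genes differ between mouse strains and resemble each other, and the H2 haplotype of the cells and the probe sequences were not used here, so which transcript each probe measured cannot be told apart.

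**Figure D2:**
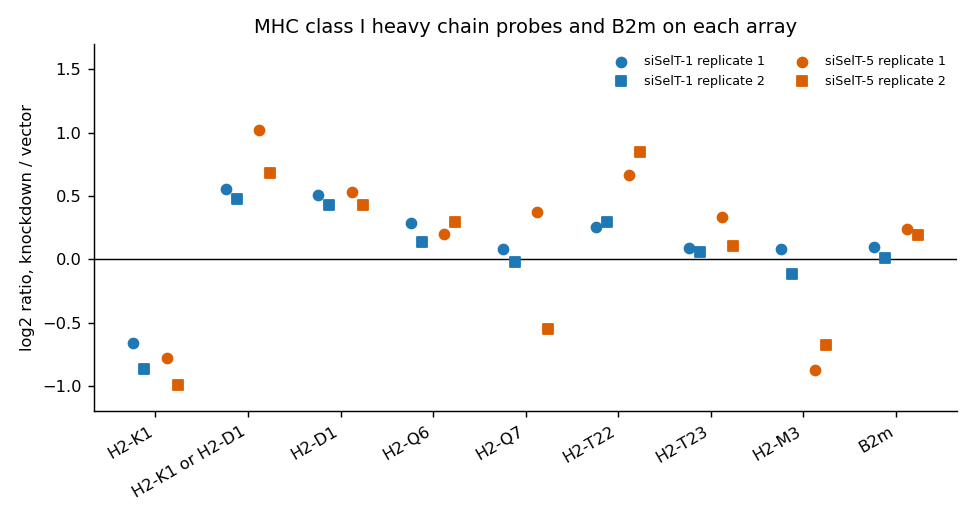
Each point is the log2 ratio of knockdown to vector on one array for class I heavy chain genes, for the probe annotated to both H2-K1 and H2-D1, and for the mean of the 39 B2m probes; siSelT-1 is blue and siSelT-5 orange, with circles for replicate 1 and squares for replicate 2. H2-K1 lies below 0 on all 4 arrays, while the shared probe and H2-D1 lie above 0 on all 4, and H2-M3 is below 0 on both siSelT-5 arrays.

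Among the other class I heavy chain genes, H2-T22 rose to 0.52 ± 0.29 (SD, n = 4; limma, adjusted p = 0.00415), at 0.26 and 0.30 with siSelT-1, and at 0.67 and 0.84 with siSelT-5. After centring H2-T22 did not pass (0.0560), and a second H2-T22 probe, with values for siSelT-5 only, stood on the other side of vector at -0.35 and -1.31. H2-M3, whose product presents formylated peptides, fell to -0.40 ± 0.46 (n = 4; 0.0122). That call came from siSelT-5, where H2-M3 stood at -0.88 and -0.68, while siSelT-1 gave 0.08 and -0.11. H2-Q7 stood at -0.03 and did not pass.

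B2m was represented by 67 probes, of which 39 had a value on every array. Averaged over the 39, it stood at 0.09 and 0.01 on the siSelT-1 arrays and at 0.24 and 0.19 on the siSelT-5 arrays. The 4 values were close together and, as deposited, the siSelT-5 ones the higher. Centred, the siSelT-5 ones were the lower, at -0.19 and -0.17 beside -0.09 and -0.08 with siSelT-1. The mean as deposited was 0.13 ± 0.10 (SD, n = 4), which did not pass (limma, adjusted p = 0.187; 95% interval -0.06 to 0.32). With the median of the probes in place of the mean it was 0.27 and passed (0.0280), and centred it was -0.13 (0.160).

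That mean covers probes of opposite behaviour. On siSelT-1 replicate 1 the 39 probes ran from -0.95 through a median of 0.21 to 0.69, and on replicate 2 from -1.28 through 0.19 to 0.69. On siSelT-5 replicate 1 they ran from -1.44 through 0.36 to 1.26, and on replicate 2 from -1.04 through 0.32 to 1.43. Of the 39 probes, 21 were above vector on all 4 arrays and 8 below it on all 4.

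The 8 low probes averaged -0.68 ± 0.22 and -0.92 ± 0.18 with siSelT-1, then -0.65 ± 0.37 and -0.73 ± 0.31 with siSelT-5 (SD over 8 probes). The 21 high probes averaged 0.42 ± 0.14 and 0.36 ± 0.18 with siSelT-1, then 0.62 ± 0.31 and 0.60 ± 0.36 with siSelT-5 (SD over 21 probes). These groups were formed by sign, so the distance between them is a description. The widest gap between neighbouring probe means, 0.26, lay between -0.22 and 0.04, with 10 probes below it and 29 above.

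With each of the 6251 named probes fitted by itself, 21 of the 39 B2m probes were called higher and 9 lower for both constructs together (limma), beside 44.3% and 8.40% of all those probes (52.7% in either direction). For siSelT-1 2 were called higher and 5 lower, beside 8.01% and 3.33% of all (11.3% in either direction). For siSelT-5 20 were called higher and 9 lower, beside 46.7% and 6.80% (53.5% in either direction). For siSelT-1 minus siSelT-5 0 of the 39 passed in limma, beside 0.0160% higher and 0.0320% lower (0.0480% in either direction); the smallest adjusted p among them was 0.0626, and with array weights the mean of B2m had 0.527. The highest probe stood at 0.95 and the lowest at -0.90, with limma adjusted p of 0.00184 and 0.00236. The probes carry the name of 1 gene and are no replicates of the knockdown. Whether all of them read the same transcript was not tested. The annotation used here gives the same gene for each and does not say how they differ.

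**Figure D3:**
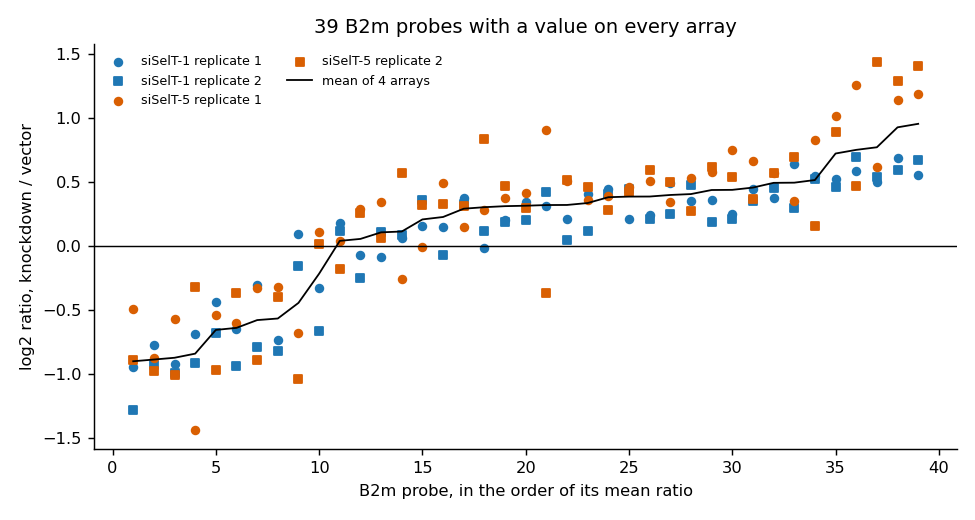
The 39 B2m probes with a value on every array stand along the horizontal axis in the order of their mean, with the log2 ratio of knockdown to vector on each array as points (siSelT-1 blue, siSelT-5 orange, replicate 1 circles, replicate 2 squares) and the mean of the 4 arrays as a line. The means run from -0.90 to 0.95, and 10 probes have a mean below 0.

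The 28 remaining B2m probes lacked a value on some array, and their ratios went with which one. The 12 probes with a value on 1 siSelT-1 array stood between 0.30 and 0.72 there, and between 0.50 and 1.26 on siSelT-5 replicate 1. On siSelT-5 replicate 2, 11 of them had a value, between -0.50 and 1.43, with 1 below vector. All probes of the table with a single siSelT-1 value had medians of -0.03 on siSelT-1 replicate 2 and of 0.04 and 0.06 on the siSelT-5 arrays. The 16 probes with no siSelT-1 value had medians of -0.99 (14 values) and -1.01 (12 values) on the siSelT-5 arrays, where 13 and 11 values lay below vector. All probes of the table with no siSelT-1 value had medians of -0.80 and -0.74 on those arrays. The filter behind the missing values is not stated, and its part in these ratios was not tested.

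The table held 9 genes with 9 or more such probes, B2m included. The SD of the probe means was 0.526 for B2m and lay between 0.183 (Rpl13a) and 0.332 (Lrp1) for the other 8. Lrp1, with 88 probes, ran from -0.86 to 0.83 around a median of 0.03, and 16 of its probes were called higher and 11 lower (limma). Gapdh, with 13 probes, and Rpl13a, with 21, had all probe means above 0, from 0.22 to 0.97 and from 0.19 to 0.89. Opposite calls on probes of 1 gene were thus seen beyond B2m. For Ifitm2, Ifitm3, Ifi27, Isg15 and H2-D1 the table held a single probe of that name alone, so no such spread can be given.

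**Figure D4:**
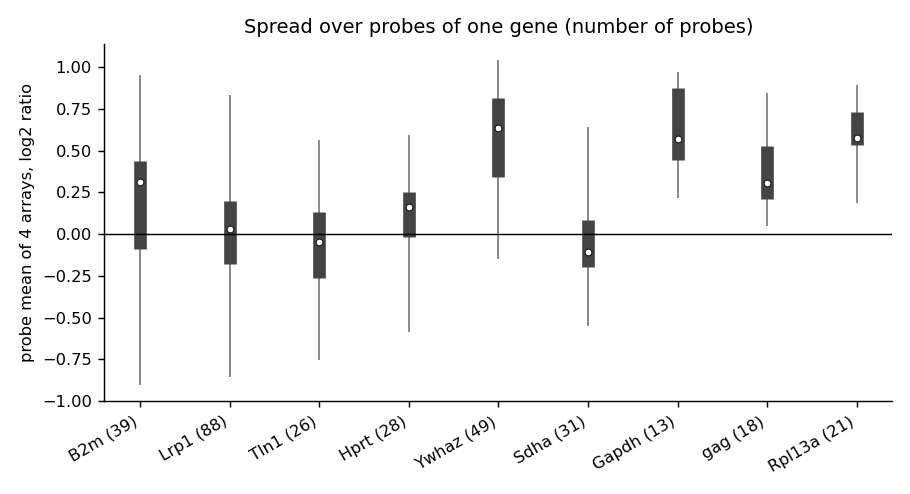
For the 9 genes with 9 or more probes on every array, the thin line spans the lowest to the highest probe mean (log2 ratio of knockdown to vector over 4 arrays), the thick bar the quartiles and the point the median, with the number of probes in brackets. B2m spans -0.90 to 0.95 and Rpl13a 0.19 to 0.89.

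Set apart by construct, siSelT-1 gave 1 higher gene of the 8 (H2-D1) and 2 lower (Isg15 and H2-K1), beside 10.3% and 3.37% of all genes (13.7% in either direction). After centring 2 of the 8 passed, both lower, beside 3.83% of all genes higher and 5.07% lower (8.90% in either direction). siSelT-5 gave 4 higher (Ifitm2, Ifitm3, Ifi27 and H2-D1) and 2 lower (Isg15 and H2-K1), beside 47.6% and 6.29% of all genes (53.9% in either direction). After centring 5 of the 8 passed, 3 higher and 2 lower, beside 19.2% and 20.0% (39.2% in either direction). These comparisons may share vector RNA, so they are given side by side only. With either siSelT-1 array left out, siSelT-1 gave 0 of the 8 and 0 of all genes in limma, with 2 of the 8 at an unadjusted p under 0.05.

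In the direct comparison, siSelT-1 minus siSelT-5, 0 of the 8 genes passed in limma, as deposited or centred, beside 0.0210% of all genes higher and 0.0421% lower (0.0631% in either direction) in each case. Ifitm2 and Ifi27 had an unadjusted p under 0.05, beside 1697 of all 4754 genes. Array weights called 1 of the 8, beside 279 of all genes. The difference was -0.66 for Ifitm2 (95% interval -1.13 to -0.19; limma, adjusted p = 0.0743) and -0.56 for Ifitm3 (-1.15 to 0.03; 0.158). Without siSelT-5 replicate 1 the difference was -0.76 for Ifitm2 and -0.79 for Ifitm3. Without siSelT-5 replicate 2 it was -0.56 for Ifitm2 and -0.33 for Ifitm3. In these fits the spread comes from the siSelT-1 pair alone, so only the sizes are given. With no array left out, the difference was -0.04 for Isg15 (-0.45 to 0.38), 0.12 for H2-K1 (-0.31 to 0.55) and -0.01 for H2-D1 (-0.40 to 0.37). It was -0.25 for Irf1 (-0.84 to 0.34) and -0.16 for B2m (-0.54 to 0.21). The median difference over all genes was -0.26, beside -0.21 over the 8.

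Other genes of the pathway were read from 4 lists. Of 68 genes of RNA sensing and antiviral defence, 42 were on the array, 10 were tested, 4 rose and 1 fell for both constructs together, beside 45.7% and 8.04% of all genes, and the median was 0.20, beside 0.25 over all genes. After centring 1 was higher and 1 lower, beside 20.5% and 21.9%. Beside Ifitm1, the secreted galectin-binding protein gene Lgals3bp rose to 0.77 ± 0.12 (SD, n = 4), the lysosomal thiol reductase gene Ifi30 to 0.56 ± 0.41, and Tor3a, a torsin ATPase gene, to 0.44 ± 0.07. Samhd1, the gene of a nucleotide hydrolase that restricts retroviruses, fell to -0.39 ± 0.20. limma's adjusted p was 0.00201 for Lgals3bp, 0.00507 for Ifi30, 0.00671 for Tor3a and 0.0109 for Samhd1; Ifi30 (0.0510) and Tor3a (0.117) did not pass centred. Ube2l6, which encodes the conjugating enzyme for ISG15, stood at 0.22 and Ifit2 at 0.05, and neither passed.

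For the 32 genes of that list on the array without a value on every array, 36 of 40 probes had values with siSelT-5 only. Their medians were -0.76 (33 values) and -0.58 (24 values), beside -0.80 and -0.74 over all probes of the table with no siSelT-1 value. A few were singled out after their values were seen. Eif2ak2, the gene of the double-stranded RNA kinase PKR, stood at -0.26 on siSelT-1 replicate 2 and at -0.40 and -0.89 on the siSelT-5 arrays. Ddx58, the gene of the RNA sensor RIG-I, stood at 0.09 and -0.27 on the siSelT-5 arrays, and Oas3, the gene of an oligoadenylate synthetase, at -0.76 and -1.40. None of these 3 probes was tested.

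Of 33 genes of interferon signalling, 24 were on the array and 9 tested, of which 4 rose and 1 fell, beside the same 45.7% and 8.04%, with a median of 0.18 beside 0.25. After centring 2 were higher and 3 lower, beside 20.5% and 21.9%. Ifngr2, the gene of an interferon gamma receptor chain, rose to 0.59 ± 0.18 (SD, n = 4), Tbk1, the kinase gene upstream of IRF3, to 0.57 ± 0.27, Irf3 to 0.42 ± 0.43 and Irf2bp2 to 0.28 ± 0.23. Jak1, the kinase gene shared by the interferon receptors, fell to -0.46 ± 0.21. limma's adjusted p for these 5 was 0.00369 to 0.0423. Irf3 and Irf2bp2 did not pass centred (0.329 and 0.904). The receptor gene Ifnar1 averaged 0.18 and Pias1, the gene of a SUMO ligase, -0.07, and neither passed.

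Of 37 genes of class I antigen presentation beyond the 8, 24 were on the array and 14 tested, of which 6 rose and 1 fell, again beside 45.7% and 8.04% of all genes, with a median of 0.24 beside 0.25. After centring 3 were higher and 1 lower, beside 20.5% and 21.9%. The shares of these 3 lists that rose lie near that of all genes. The interferon-inducible proteasome activator genes Psme2 and Psme1 rose to 0.95 ± 0.50 (SD, n = 4) and 0.64 ± 0.36. Psme2 stood at 0.59 and 0.46 on the siSelT-1 arrays and at 1.45 and 1.32 on the siSelT-5 arrays. Psme1 stood at 0.25 and 0.42 with siSelT-1 and at 0.95 and 0.94 with siSelT-5. A second Psme1 probe, not tested, stood at -0.15 on siSelT-1 replicate 2 and at 0.49 and -0.05 with siSelT-5. By their tested probes both genes were higher on each siSelT-5 array than on either siSelT-1 array. Their differences, -0.86 and -0.61, missed the threshold (limma, adjusted p = 0.0543 and 0.0655). Over all genes the median difference was -0.26 and 27.72% were above 0, so higher values with siSelT-5 were common. The share of all genes without overlap was not counted.

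Fcgrt, the heavy chain gene of the neonatal Fc receptor, which pairs with beta-2-microglobulin, rose to 0.89 ± 0.15 (SD, n = 4; limma, adjusted p = 0.00185) and was above vector on all 4 arrays, at 1.11 and 0.76 with siSelT-1 and at 0.86 and 0.85 with siSelT-5. Mr1, a class I-like gene, rose to 0.50 ± 0.36 (0.0231), and the disulfide isomerase gene Pdia3 of the peptide loading complex to 0.43 ± 0.15 (0.0123), but neither passed centred (0.246 and 0.164). A further Mr1 probe was below vector on each of the 3 arrays where it had a value, at -1.13 on siSelT-1 replicate 2 and at -0.43 and -0.75 with siSelT-5. Tapbp, the gene of tapasin in the same complex, passed for siSelT-5 alone, at 0.38 (0.0316). Psme3, the activator subunit gene outside the interferon-inducible pair, stood at 0.24 and did not pass.

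Of 11 MHC class II genes 3 were tested, of which 2 rose, beside 45.7% of all genes. H2-DMb1 and H2-DMb2, genes of the peptide exchange factor of class II, rose to 0.75 ± 0.19 and 0.53 ± 0.28 (SD, n = 4; limma, adjusted p = 0.00302 and 0.00709), H2-DMb1 alone after centring (0.0120), and H2-DMa stood at 0.04. The 5 class II genes on the array that were not tested had values with siSelT-5 only. Their medians were -1.22 (4 values) and -0.82 (5 values). The highest values were -1.11 and 0.07 on the siSelT-5 arrays. All 4 tested endothelial markers, Cd34 (0.72), Pecam1 (0.70), Tie1 (0.72) and Ramp2 (0.42), rose, beside 45.7% of all genes. All but Ramp2 (limma, adjusted p = 0.153) also rose centred, beside 20.5%. A further endothelial marker, Tek, was not tested and had values with siSelT-5 only, at -1.35 and -1.09. All probes of the table with no siSelT-1 value had medians of -0.80 and -0.74 there. The part of the endothelial markers in the results was not tested.

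**Figure D5:**
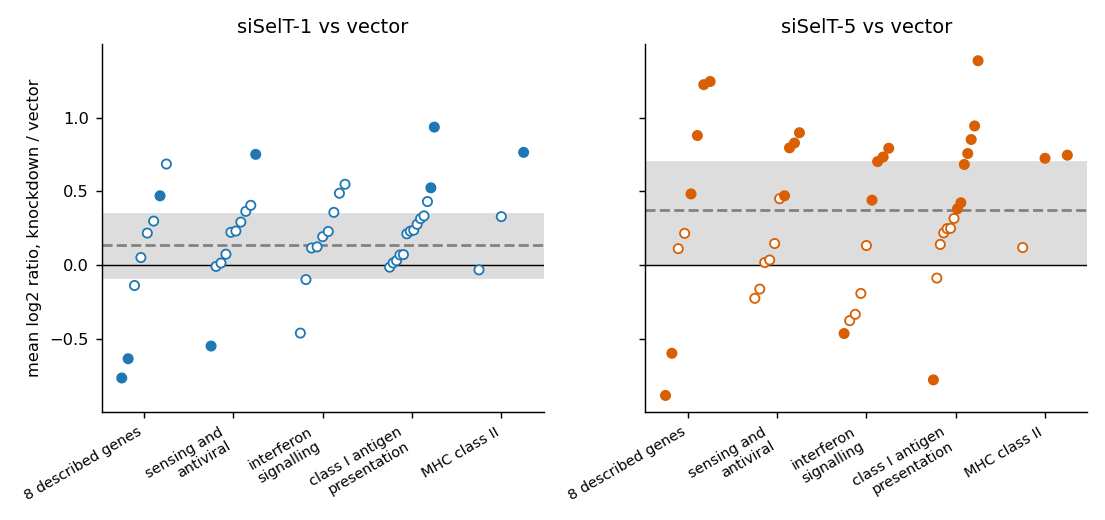
Each point is the mean log2 ratio of knockdown to vector of one tested gene, left for siSelT-1 and right for siSelT-5, by gene list; filled points passed limma at an adjusted p under 0.05, the grey band spans the quartiles of all 4754 genes and the dashed line is their median. Points of each list lie on both sides of the median, at 0.14 for siSelT-1 and 0.37 for siSelT-5.

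The genes most like Ifitm3 over the 4 arrays, by Euclidean distance of their log2 ratios, were Ass1 (0.06), Atp5md (0.20) and Rpl32 (0.22). Those most like H2-K1 were Yeats2 (0.25), Uchl5 (0.27) and Mcm2 (0.28). None of these 6 is in the interferon or antigen presentation lists, and 4 arrays are few for such a ranking.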

How the data were processed

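The authors deposited 1 table of log ratios of the channels of 4 two-colour arrays, read here as log2 of knockdown (Cy5) over vector (Cy3), per the labels' titles and dyes. The base, the background correction, normalization and filter are not given in the sources used here. Knockdown RNA was always Cy5, and a dye effect of a gene would enter each ratio to vector and cancel between constructs. Of 22534 probes 18129 had a single gene name, and 18041 were matched by Entrez identifier to GRCm38.p6; Isg15 kept the name of the annotation. A gene was the mean of its probes of a single name with values on all 4 arrays.

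limma 3.58.1 (R 4.3.3, statmod 1.5.0; lmFit and eBayes) fitted 2 construct means with 2 residual degrees of freedom and was tested on simulated data. Tests were two-sided. The number of arrays limits the precision. Whether vector RNA was shared between arrays is not said, so how far the vector's own spread enters the tests is not known. Members and lists were chosen with earlier results of these data known. All 8 genes are named; from each pathway list, up to 8 genes that passed in any comparison and 2 that did not, by size, and 3 like genes for Ifitm3 and for H2-K1. Markers that passed are named. Alternatives were centring, scaling, missing values, probe summary, unnamed probes, array weights, robust eBayes, leaving out each array, and a replicate block.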

Additional observations from a re-analysis of the deposited data

Results flagged for a closer look

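A few values had opposite signs with the 2 constructs. Postn, a matrix protein gene among the fibroblast markers, stood at -0.75 and -0.82 on the siSelT-1 arrays and at 1.72 and 1.55 on the siSelT-5 arrays, and its difference, siSelT-1 minus siSelT-5, was -2.42 (limma, adjusted p = 0.0219). The fibroblast marker Dcn differed by -0.975 (0.0543), the receptor gene Ifnar1 by 0.74 (0.139) and Pias1 by 0.53 (0.0831), and these missed the threshold in limma. A second Pias1 probe, not tested, did not change sign. It stood at 0.33 on siSelT-1 replicate 2 and at 0.07 and 0.32 with siSelT-5. Of the 39 B2m probes, 2 lay below vector on both siSelT-1 arrays and above it on both siSelT-5 arrays, with differences of -0.56 (adjusted p = 0.0981) and -0.43 (0.129).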

How the results depend on the processing

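Of 448 recomputed ratios of the 8 genes, 367 kept their direction and side of the threshold, 31 lost the call, 22 gained one and 28 changed sign. With siSelT-5 alone, Ifitm3, Ifi27, Isg15 and H2-K1 passed under all 14 alternatives.

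For both constructs together 2554 genes passed. With an array left out this was 0 to 3190 genes and 0 to 6 of the 8. For siSelT-1 650 genes passed; 423 did centred on the shared probes, 324 centred on all values, 1588 with arrays scaled, 67 with a looser rule on missing values, and 1920 with array weights. Leaving out an array gave 0 to 2089 genes and 0 to 5 of the 8. Of the 8, 0 passed with the looser rule and 5 with array weights. For siSelT-5 2563 genes passed, 1460 with arrays scaled and 1623 to 3027 with an array left out. For siSelT-1 minus siSelT-5 3 genes passed, 2512 centred on all values (4 of the 8), 15 scaled, 279 with array weights (1 of the 8) and 0 to 1796 with an array left out (0 to 3 of the 8). Where 0 genes passed in limma, 390 to 1846 had an unadjusted p under 0.05. With a siSelT-5 array left out the spread comes from the siSelT-1 pair alone. The cause of the other changes was not tested.

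The replicate numbers were not used to pair the arrays in the main fit. Deviations of same-numbered arrays correlated at 0.076 over genes, with 2 pairs. So few pairs cannot show whether the numbers mark a shared run. With the replicate block 35 genes passed for siSelT-1, 0 of the 8 among them (Isg15 and H2-K1 at an adjusted p of 0.0534, H2-D1 at 0.0663), and 0 for the difference (1674 at an unadjusted p under 0.05), against 2558 for both constructs and 2566 for siSelT-5.

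Signs turned as follows. Centred on the shared probes, B2m stood at -0.13 for both constructs, -0.0889 for siSelT-1 and -0.18 for siSelT-5, Irf1 at -0.28 for siSelT-5, and the differences at 0.22 for Isg15, 0.0035 for Irf1, 0.24 for H2-D1 and 0.0894 for B2m. Centred on all values, Irf1 stood at 0.0295 for both, B2m at -0.072 for siSelT-1 and the H2-K1 difference at -0.21. Scaled, B2m stood at -0.13, -0.12 and -0.15, Irf1 at -0.23 for siSelT-5, and the differences at 0.024 for Ifitm3, -0.14 for H2-K1, 0.35 for H2-D1 and 0.0312 for B2m. By its probe of smallest p, B2m stood at -0.85 for siSelT-1 and its difference at 0.83. With an array left out, Irf1 ran from -0.17 to 0.14 for both constructs and from -0.45 to 0.17 for siSelT-1, and the differences from -0.14 to 0.0625 for Isg15, -0.56 to 0.0613 for Irf1 and -0.0625 to 0.037 for H2-D1.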
